A study of Homo sapiens with 16 samples.

Results

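Insulator-type CTCF cohesin sites are described here: CTCF regions that carried the cohesin subunits RAD21 and SMC1 but overlapped no called region of acetylated histone or RNA polymerase II. A region of the CTCF table was a member when it overlapped by at least 1 bp a RAD21 region and an SMC1 region and overlapped no region of histone H3 acetylated at lysine 27 (H3K27Ac), of polymerase phosphorylated at serine 5 (Pol2Ser5) or serine 2 (Pol2Ser2), or of total polymerase (TotalRNAPol2). The rule was met by 26767 of 171693 CTCF regions (15.6%), which is 34.9% of the 76778 CTCF regions that overlapped both subunits. The other 50011 of these overlapped at least 1 of the 4 acetylation and polymerase tables and are called sites with active marks. Insulator activity was not measured, so the name stands only for the combination of proteins and absent marks.

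The series asked how DNA methylation bears on polyadenylation through CTCF and cohesin, and compared DKO cells with HCT116 cells by chromatin immunoprecipitation and sequencing. HCT116 is a human colorectal carcinoma line, and DKO is a line derived from it in which both DNMT1 and DNMT3B, the genes of a maintenance and a de novo DNA methyltransferase, are disrupted. Both lines were grown in the same medium, and no agent, dose or time differed between them. Of the 16 samples, 14 were immunoprecipitated libraries, with 1 library per line for each of 7 targets, and the 2 input libraries were not used here. The TotalRNAPol2 libraries are titled as total polymerase while their antibody label names Pol2Ser5, and the title was followed. Because each line had a single library per target, no difference could be checked against replicates or tested. Each interval below covers counting error or the spread of regions within these libraries only, and a difference between the DKO and HCT116 libraries cannot be told apart from one between separate cultures of either line.

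CTCF is a zinc finger protein that binds a long DNA motif and blocks contact between enhancers and promoters at insulators. Cohesin is a ring complex that extrudes chromatin loops and halts where it meets CTCF. RAD21 is the kleisin subunit that closes the ring, and SMC1 is a subunit with an ATPase head that forms the ring's arm. Methylation of cytosine within some CTCF motifs prevents CTCF from binding, and loss of DNA methyltransferases is known to open such motifs. DNA methylation itself was not measured in these libraries.

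In the median the members were broader than the CTCF regions of the whole table, and their cohesin was better centred than at sites with active marks. Their median width was 913 bp, against 811 bp at sites with active marks and 372 bp over the whole CTCF table. The RAD21 summit lay within 50 bp of the CTCF summit at 75.8% of members and at 52.4% of sites with active marks, with median offsets of 22 bp and 45 bp. For SMC1 these shares were 68.5% and 50.03%, with offsets of 29 bp and 50 bp. The cohesin peaks of the members thus sat on top of the CTCF peak in the large majority of cases. The nearest acetylation or polymerase region was a median of 5704 bp away, and the next member a median of 56229 bp away. Members made up between 5.57% of CTCF regions on chromosome 19 and 23.4% on chromosome 18.

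Of the 4 tables, the acetylation table was most often the only one to exclude a site. Leaving it out of the rule would have given 34144 members, whereas leaving out Pol2Ser5, Pol2Ser2 or TotalRNAPol2 would have given 27645, 28804 and 27911. The rule asks for the absence of a called region in either line, not for the absence of reads.

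The difference between the lines is given as M, the log2 ratio of the authors' normalized read densities, DKO over HCT116, and the level as A, the mean of the log2 densities of both lines. At the members CTCF had a median density of 101 in DKO, from 102 reads in the 1 kb counting window, and of 108 in HCT116, from 105 reads. RAD21 had 64.9 in DKO, from 73 reads, and 50.2 in HCT116, from 43. SMC1 had 48.5 in DKO, from 53 reads, and 40.1 in HCT116, from 35. CTCF at the typical member was therefore at nearly the same density in both lines, and both cohesin subunits were at a somewhat higher density in DKO. Sites with active marks had median densities of 92.7 (CTCF), 71.3 (RAD21) and 64.6 (SMC1) in DKO, against 66.0, 81.3 and 59.3 in HCT116, so there RAD21 was at the lower density in DKO.

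**Figure D1:**
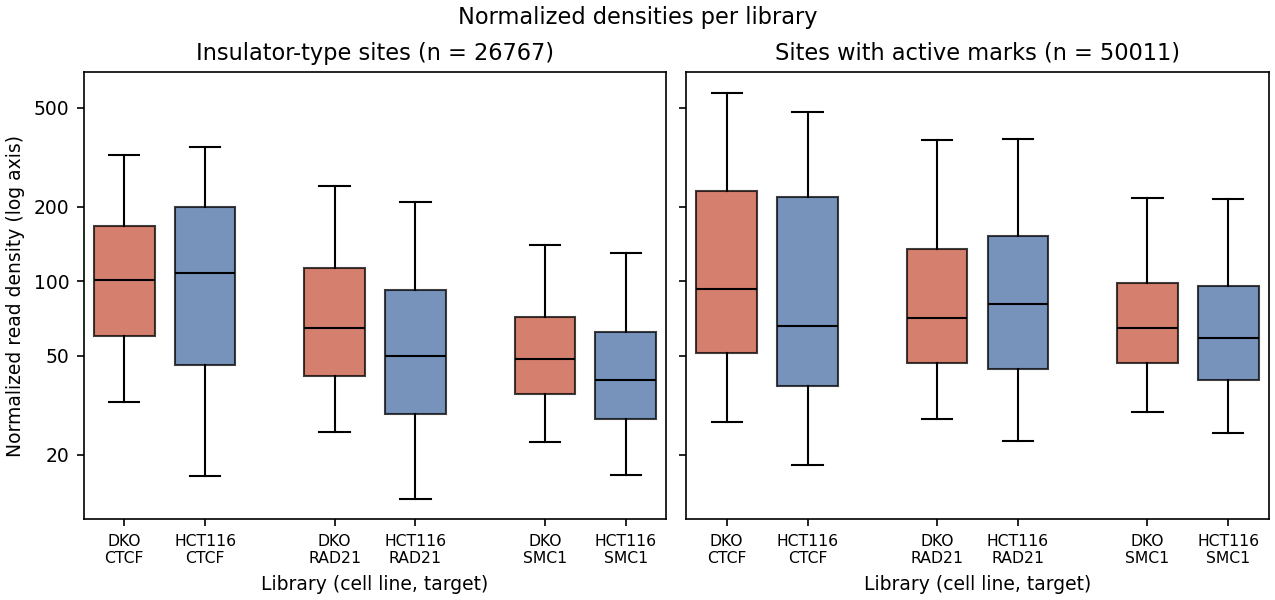
Normalized read density (log axis) in each library, DKO left of HCT116 for CTCF, RAD21 and SMC1, at the 26767 insulator-type sites and the 50011 sites with active marks. Boxes span the quartiles with the median as a line, and whiskers run from the 5th to the 95th percentile of regions. At insulator-type sites the RAD21 median is 64.9 in DKO and 50.2 in HCT116, and at sites with active marks it is 71.3 in DKO and 81.3 in HCT116.

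The median M of the members was -0.08 for CTCF (95% interval over regions -0.09 to -0.07), 0.33 for RAD21 (0.32 to 0.34) and 0.21 for SMC1 (0.20 to 0.22). CTCF spread widely around its median, with quartiles of -0.46 and 0.53. Recentring M on all regions of each table, which moved the table medians by -0.26 for CTCF, -0.14 for RAD21 and -0.16 for SMC1, gave -0.34, 0.19 and 0.05 at the members. None of the 3 signs changed there, with chromosome medians removed or with constant centring, in which a single offset per table replaces the level-dependent one. The medians at sites with active marks were 0.21, -0.05 and 0.06, and those of CTCF and SMC1 turned to -0.05 and -0.09 with M recentred.

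At least 2-fold differences of CTCF were more often toward DKO as deposited, but not with M recentred or among members called in both lines. In DKO, CTCF was higher by at least 2-fold at 4024 members (15.0%, against a background of 20.1% over all regions of that table) and lower by at least 2-fold at 1662 (6.21%, background 6.33%). It was similar, with M within 0.5 of 0, at 13750 (51.4%, background 45.0%). Regions 2-fold higher in DKO were thus a smaller share of the members than of the table as a whole. The 2 shares were not matched for level. Members had a median of 102 CTCF reads in DKO and 105 in HCT116, against 55 and 36 over the table. Members higher in DKO made up 70.8% of those past 2-fold as deposited and 74.4% with constant centring, but 48.4% with M recentred and 53.1% with chromosome medians removed. Among the 13734 members called in both lines for all 3 proteins, CTCF was past 2-fold toward DKO at 287 and toward HCT116 at 650.

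The cohesin subunits were more one-sided than CTCF. In DKO, RAD21 was higher by at least 2-fold at 5127 members (19.2%, background 13.7%) and lower at 746 (2.79%, background 8.70%). SMC1 was higher by at least 2-fold at 3293 members (12.3%, background 9.36%) and lower at 668 (2.50%, background 4.67%). RAD21 was similar at 14199 members (53.0%, background 46.6%) and SMC1 at 15509 (57.9%, background 55.1%). Both subunits thus lay above the background toward DKO and below it toward HCT116. Of the members past 2-fold, those higher in DKO made up between 80.2% and 91.1% for RAD21 and between 69.5% and 83.1% for SMC1 over the 4 scalings. RAD21 at sites with active marks was higher in DKO at 4927 (9.85%) and lower at 5180 (10.4%), and its share toward DKO ran from 34.5% to 52.3% over the scalings. SMC1 there was higher in DKO at 4641 (9.28%) and lower at 1130 (2.26%), with a share toward DKO of 62.2% to 80.4%. A majority toward DKO for SMC1 was therefore not particular to the members.

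All 3 proteins were higher in DKO by at least 2-fold at 1820 members (6.80%, exact interval 6.50% to 7.11%, background over CTCF regions with both subunits 5.59%). All 3 were lower by at least 2-fold at 281 (1.05%, 0.93% to 1.18%, background 0.832%). With M recentred these counts were 1278 and 450, and with chromosome medians removed 1275 and 419. Sites with active marks gave 2472 (4.94%) and 358 (0.716%) as deposited. In median reads, the 1820 members had 106.5 (CTCF), 80 (RAD21) and 62 (SMC1) in DKO, against 18, 13 and 17 in HCT116. At 1092 of them all 3 proteins had been called in DKO only, and at 6.70% all 3 had been called in both lines. The 281 members had 35 (CTCF), 23 (RAD21) and 19 (SMC1) reads in DKO, against 126, 52 and 41 in HCT116.

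Other thresholds showed how large the differences were. At 1.5-fold, CTCF was higher in DKO at 6327 members (23.6%, background 34.7%) and lower at 4953 (18.5%, background 14.2%). RAD21 was higher at 9167 (34.2%, background 27.6%) and lower at 1871 (6.99%, background 19.4%), and SMC1 was higher at 7381 (27.6%, background 24.8%) and lower at 2111 (7.89%, background 12.7%). All 3 proteins passed 1.5-fold toward DKO at 3941 (14.7%, background 12.7%) and toward HCT116 at 907 (3.39%, background 3.17%). At 4-fold, given for M as deposited only, the CTCF share toward DKO was slightly above the background, unlike at 1.5-fold and 2-fold. CTCF was then higher in DKO at 1486 (5.55%, background 4.84%) and lower at 171 (0.639%, background 0.803%), RAD21 higher at 1198 (4.48%, background 1.97%) and lower at 77 (0.288%, background 0.655%), and SMC1 higher at 309 (1.15%, background 0.587%) and lower at 32 (0.120%, background 0.275%). All 3 passed 4-fold toward DKO at 199 members (0.743%, background 0.590%) and toward HCT116 at 11 (0.0411%, background 0.0287%).

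Calls in 1 line were mostly calls in DKO, as at sites with active marks. All 3 proteins were called in both lines at 13734 members (51.3%), in DKO only at 3183 (11.9%) and in HCT116 only at 267 (1.00%). The shares at sites with active marks were 49.2%, 10.8% and 1.69%. Over the whole tables DKO also had more reads per region, with medians of 55 (CTCF), 46 (RAD21) and 53 (SMC1) against 36, 30 and 35 in HCT116. The part of read depth in the calls was not tested. CTCF was called in both lines at 80.9% of members, RAD21 at 72.7% and SMC1 at 54.6%. These shares were 43.6%, 38.2% and 34.1% over the whole tables, and 65.3%, 76.5% and 62.3% at sites with active marks. Members were thus called in both lines more often than sites with active marks for CTCF, and less often for both subunits. No member lacked CTCF reads in either line, and HCT116 had 0 reads at 4 members for RAD21 and at 1 for SMC1. Among the members called in both lines for all 3 proteins the median M was -0.27 for CTCF, 0.21 for RAD21 and 0.06 for SMC1, and the last turned to -0.07 with chromosome medians removed and to -0.10 with M recentred.

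The differences depended on how strongly a site was bound. When members were split into quintiles by the A of CTCF, the median CTCF M was 0.74 in the weakest quintile, 0.26 in the next, and -0.25, -0.34 and -0.18 in the 3 stronger ones. RAD21 had 0.77, 0.48, 0.28, 0.23 and 0.19, and SMC1 0.61, 0.39, 0.14, 0.06 and 0.06. CTCF was higher in DKO by at least 2-fold at 40.8% of the weakest quintile, at 21.1%, 9.54% and 2.99% of the next ones and at 0.75% of the strongest. In the strongest quintile CTCF was lower by at least 2-fold at 0.915%, so nearly all strong sites were within 2-fold in both lines. With M recentred the SMC1 medians of the 3 stronger quintiles were below 0, and the CTCF median of the second weakest was close to 0. The weakest quintile had a median of 46 CTCF reads in DKO, against 24 in HCT116, and the strongest 245 in DKO, against 298 in HCT116. As A averages both lines, a site bound in 1 line only has a low A. In the weakest quintile 62.1% of members were called for CTCF in DKO only, and in the strongest all were called in both lines. A weak region enters the table only when it was called in at least 1 line, and the part of this selection in the trend was not tested.

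**Figure D2:**
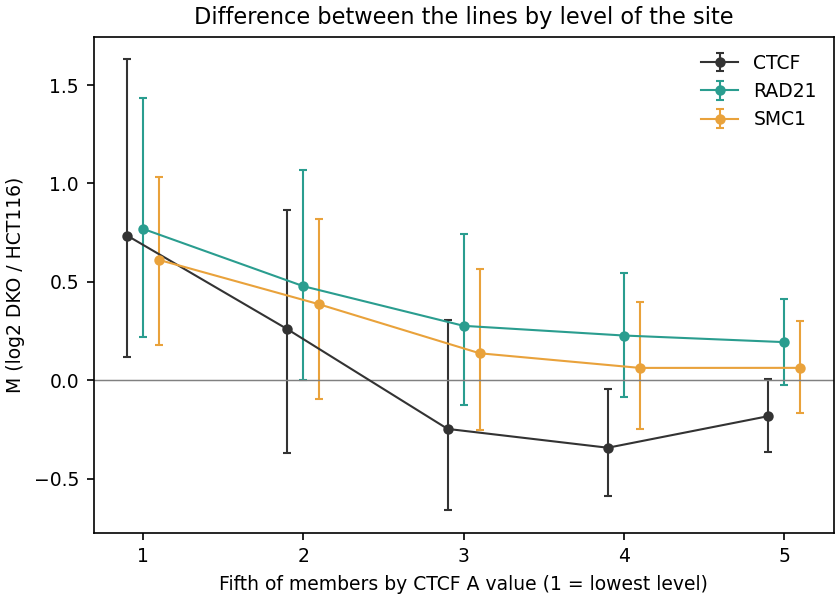
Median M (log2 DKO over HCT116) of CTCF, RAD21 and SMC1 at insulator-type sites, by quintile of the CTCF A value from weakest (1) to strongest (5); bars span the quartiles of regions. The CTCF median is below 0 from the third quintile on (-0.25), while the medians of RAD21 and SMC1 stay above 0 as deposited.

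Over all sites, cohesin differed relative to CTCF in opposite directions in the 2 classes. The median of RAD21 M minus CTCF M was 0.36 at the members (0.35 to 0.37) and -0.35 at sites with active marks, and it was above 0 at 72.5% of members and at 31.6% of sites with active marks. The median of SMC1 M minus CTCF M was 0.21 and -0.18. Over the other scalings the members had 0.38 to 0.48 for RAD21 and 0.21 to 0.31 for SMC1, and sites with active marks had -0.39 to -0.20 and -0.18 to -0.07. Among sites called in both lines for all 3 proteins the RAD21 value was 0.46 at members and -0.22 at sites with active marks, and the SMC1 value was 0.31 and -0.11. Over the other scalings these sites with active marks had -0.26 to -0.07 for RAD21 and -0.03 to 0.00047 for SMC1, so for SMC1 the value below 0 was lost with chromosome medians removed. RAD21 M minus CTCF M had a median above 0 for members and below 0 for sites with active marks on 23 of 23 chromosomes, and for SMC1 the members were above 0 on 22 of 23, chromosome 22 having -0.01.

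Level changed the size of this contrast. With A of CTCF up to 5, from 5 to 6, from 6 to 7, from 7 to 8 and over 8, the median of RAD21 M minus CTCF M was -0.05, 0.14, 0.44, 0.51 and 0.30 at members. At sites with active marks it was -0.42, -0.57, -0.51, -0.01 and -0.16. For SMC1 the members had -0.41, -0.02, 0.30, 0.36 and 0.18, and sites with active marks -0.21, -0.27, -0.29, 0.04 and -0.14. Members thus had the higher RAD21 value at each level and the higher SMC1 value at each level but the lowest, where the order was the other way. Recentring adds 0.12 to each RAD21 value and 0.10 to each SMC1 value, which turns values just below 0 positive and keeps this order.

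The number of active tables graded the contrast. From 0 tables (the 26767 members) over 1 (11436 regions), 2 (6206), 3 (11405) and 4 (20964), the median of RAD21 M minus CTCF M was 0.36, 0.06, -0.06, -0.33 and -0.67, and that of SMC1 was 0.21, 0.04, -0.03, -0.17 and -0.36. The sign at 2 tables turned to 0.07 for RAD21 and 0.09 for SMC1 with chromosome medians removed and was positive with M recentred as well. The median CTCF M was -0.08, 0.09, 0.14, 0.19 and 0.28 along the same series, and turned to -0.17, -0.12 and -0.07 at 1, 2 and 3 tables with M recentred. That of RAD21 was 0.33, 0.20, 0.15, -0.04 and -0.37. CTCF was thus relatively higher in DKO, and RAD21 relatively lower, the more active tables overlapped a site. The values differed with the mark present. Sites whose only active overlap was TotalRNAPol2 (1144), Pol2Ser5 (878) or Pol2Ser2 (2037) had RAD21 values of 0.25, 0.19 and 0.18, while sites with H3K27Ac alone (7377) had -0.03, the farthest from the members, which M recentred turns positive.

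**Figure D3:**
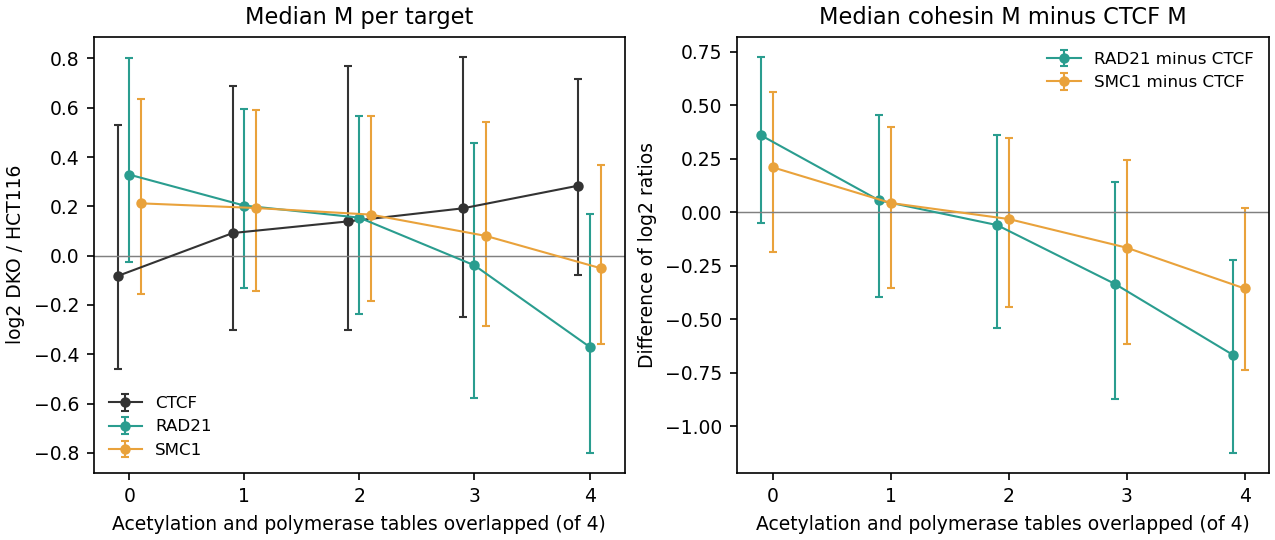
Left, median M (log2 DKO over HCT116) of CTCF, RAD21 and SMC1 by the number of acetylation and polymerase tables that a CTCF cohesin site overlapped; right, median of cohesin M minus CTCF M for the same sites. Bars span the quartiles of regions, and 0 tables are the insulator-type sites. RAD21 minus CTCF runs from 0.36 at 0 tables to -0.67 at 4 tables.

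Distance from active chromatin was followed within the members as well. With the nearest active region at up to 1 kb, 1 to 5 kb, 5 to 20 kb, 20 to 50 kb, 50 to 100 kb and over 100 kb, the median RAD21 M was 0.28, 0.29, 0.34, 0.41, 0.51 and 0.66. SMC1 had 0.23, 0.19, 0.18, 0.26, 0.32 and 0.49, and CTCF had 0.03, -0.10, -0.13, -0.11, 0.01 and 0.15, all of them below 0 with M recentred. RAD21 was thus highest relative to HCT116 at the 448 members farthest from active chromatin, whose interval was 0.47 to 0.77. RAD21 M minus CTCF M was 0.22 within 1 kb and lay between 0.34 and 0.44 in the farther bins. At the margin of the rule the classes met. The 460 members with an active region closer than 100 bp had medians of 0.18, 0.26 and 0.22 for CTCF, RAD21 and SMC1. The 628 sites with active marks whose longest overlap with an active region was at most 100 bp had 0.20, 0.29 and 0.25. The 739 members that overlapped a subunit by at most 100 bp had 0.41, 0.44 and 0.43.

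Across members grouped by CTCF M, the medians of both subunits rose with CTCF. From CTCF M below -2 (171 members) over -2 to -1 (1491), -1 to -0.5 (4415), within 0.5 of 0 (13750), 0.5 to 1 (2916), 1 to 2 (2538), 2 to 3 (1028) and 3 or more (458), the median RAD21 M was -1.55, -0.58, 0.03, 0.28, 0.78, 1.20, 1.90 and 2.37. SMC1 had -1.29, -0.61, -0.15, 0.17, 0.60, 0.88, 1.20 and 1.57. Both subunits thus followed CTCF over the whole range, with the median RAD21 M above that of SMC1 in each of these bins but the lowest. RAD21 at sites with active marks had -0.18 at similar CTCF and 1.78 at CTCF M of 3 or more. Spearman's rho across the members was 0.66 for CTCF with RAD21, 0.69 for CTCF with SMC1 and 0.68 for RAD21 with SMC1, and 0.44, 0.51 and 0.57 among the 13734 members called in both lines throughout. Across sites with active marks these were 0.50, 0.60 and 0.74, and 0.15, 0.32 and 0.66 among the 24628 called in both lines. They describe regions that share the same libraries and are no independent replicates.

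**Figure D4:**
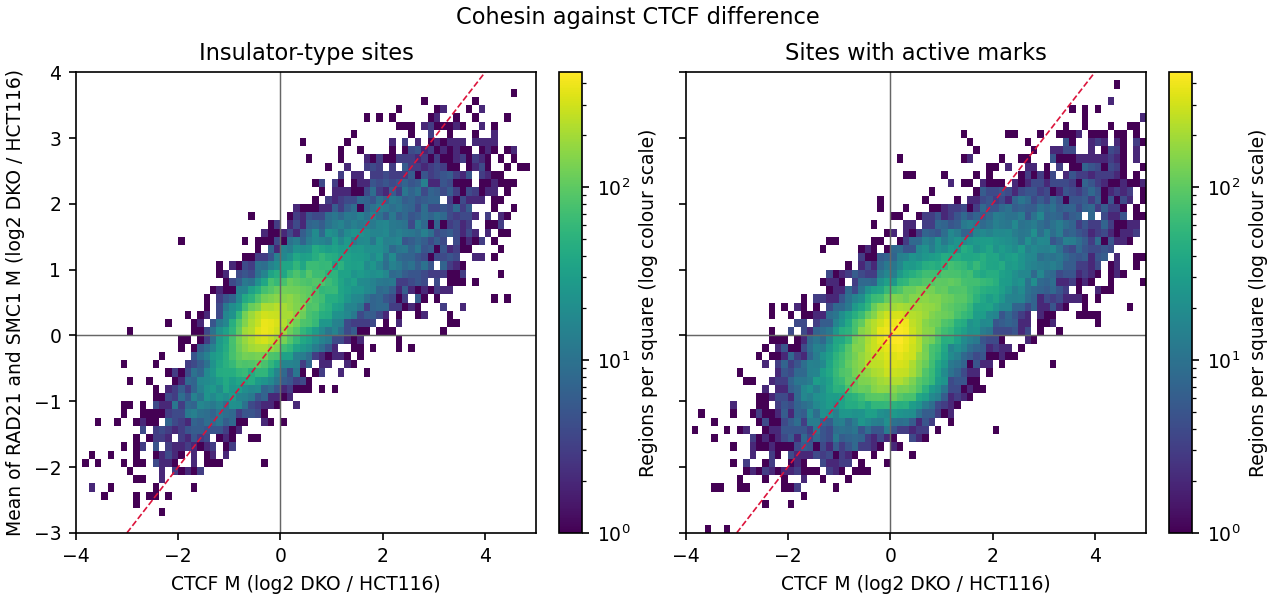
Mean of RAD21 and SMC1 M against CTCF M (both log2 DKO over HCT116) at insulator-type sites and at sites with active marks; colour gives the number of regions per square on a log scale, and the dashed line marks equal values. Insulator-type sites lie mainly above the dashed line near CTCF M of 0, and sites with active marks extend below it. Regions beyond the axes are not drawn.

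Of the 4024 members with CTCF at least 2-fold higher in DKO, 72.0% had RAD21 past the same threshold, 51.6% had SMC1 and 45.2% (43.7% to 46.8%) had both. The shares at sites with active marks were 41.4%, 39.1% and 26.8% of 9215. Neither subunit passed 2-fold at 21.6% of these members and at 46.3% of these sites with active marks. At 96.1% of the 4024 members both subunits were at least above 0, and at 0 was either subunit 2-fold higher in HCT116, which allows a share of up to 0.0916% by the exact interval. Higher CTCF with both subunits similar was found at 168 of the 4024 members (4.17%) and at 1168 of the 9215 sites with active marks (12.7%). Both classes require a called region of each subunit, so higher CTCF without called cohesin is left out by the rule. The part of this filter in these shares was not tested. These 168 were nearer to an active region, at a median of 2316 bp against 9364 bp at the 1820 with all 3 proteins higher, and the RAD21 summit was farther from that of CTCF, at 77 bp against 25 bp.

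Cohesin past 2-fold was less frequent where CTCF was lower in DKO, and the medians of RAD21 and SMC1 at similar CTCF already lay toward DKO, at 0.28 and 0.17. Of the 1662 members with CTCF at least 2-fold higher in HCT116, RAD21 was too at 31.3%, SMC1 at 28.0% and both at 16.9%, while both subunits were below 0 at 78.6%. At sites with active marks these shares were 38.7%, 23.5%, 17.9% and 81.4% of 2005. Neither subunit passed 2-fold toward HCT116 at 957 of these members (57.6%) and at 55.7% of these sites with active marks. Both subunits were similar at 351 of the 1662 members, where CTCF and RAD21 had medians of 58 and 53 reads in DKO, against 127 and 45 in HCT116. CTCF was similar and both subunits were higher in DKO at 207 of 13750 members (1.51%), and both were higher in HCT116 at 9. At sites with active marks and similar CTCF the order was the other way, with 99 (0.37%) and 212 (0.79%) of 26724.

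Single members show the range of these patterns. They were ranked by M among members with at least median CTCF density, and hg19 positions are given as the deposited table lists them. The member with the highest mean M, chr10:7449354-7451908, had 540 CTCF, 350 RAD21 and 238 SMC1 reads in DKO, against 7, 24 and 24 in HCT116 (M 5.98, 3.55 and 2.93). The exact counting interval of its CTCF M was 5.11 to 7.49. This site was close to empty of CTCF in HCT116 and strongly bound in DKO, while the 13 other members within 500 kb had a median CTCF M of -0.16. The strongest of the group in reads, chr4:40439581-40440942, had 712 CTCF, 683 RAD21 and 554 SMC1 reads in DKO, against 18, 48 and 57 in HCT116 (M 5.20, 3.67 and 2.91), and the 6 other members near it had a median of -0.37. The median RAD21 M of these neighbours was 0.10 and 0.34. The median M of all regions of the 7 tables within 100 kb, the site's own included, was 0.90 at the site on chromosome 10 (31 regions) and -0.87 at that on chromosome 4 (60 regions). The nearest member to the site on chromosome 10, 165 bp away, had a CTCF M of 2.78. At chr11:39387239-39387839 there were 106 CTCF, 129 RAD21 and 59 SMC1 reads in DKO, against 5, 1 and 6 in HCT116 (M 3.93, 5.44 and 2.81). With a single RAD21 read in HCT116, the interval of that M was 3.92 to 11.74.

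The next sites of this group lay among other members that were higher in DKO. The site chr5:3598715-3601180 had 432 CTCF, 199 RAD21 and 168 SMC1 reads in DKO, against 10, 12 and 12 in HCT116 (M 5.20, 3.57 and 3.39). The 8 other members within 500 kb had a median CTCF M of 2.59. The site chr17:21742678-21744500 had 389 CTCF, 237 RAD21 and 185 SMC1 reads in DKO, against 5, 15 and 24 in HCT116 (M 5.88, 3.56 and 2.57), and the 13 others near it had a median CTCF M of 2.12. The shortest of them, chr15:21997212-21997497, had 82 CTCF, 76 RAD21 and 45 SMC1 reads in DKO, against 2, 2 and 3 in HCT116 (M 4.50, 4.09 and 3.24), with a median of 2.41 at 5 others. Members near these sites were thus higher in DKO too, and copy number was not measured.

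At the other end, 5 of the 6 members lowest in DKO had fewer than 10 DKO reads of each protein. The lowest, chrX:27936849-27937346, had 1 CTCF, 2 RAD21 and 3 SMC1 reads in DKO, against 73, 33 and 21 in HCT116 (M -5.53, -4.17 and -2.73), with an interval of -11.83 to -3.99 for CTCF. Farther along the X chromosome, chrX:28613315-28614161 had 3 CTCF, 5 RAD21 and 1 SMC1 reads in DKO, against 85, 23 and 31 in HCT116 (M -4.69, -2.64 and -4.27). Within 100 kb of this site 14 of 65 regions of the 7 tables had no DKO read, and absent DNA cannot be told apart from absent binding. On chromosome 13, chr13:65639141-65639664 had 9 CTCF, 5 RAD21 and 7 SMC1 reads in DKO, against 110, 58 and 33 in HCT116 (M -3.66, -3.85 and -2.37). On the same chromosome, chr13:76374678-76375047 had 4 CTCF, 7 RAD21 and 8 SMC1 reads in DKO, against 68, 44 and 40 in HCT116 (M -4.05, -3.05 and -2.48). No region of any table within 100 kb of these sites of chromosome 13 lacked DKO reads. The median M of all regions of the 7 tables within 100 kb, the site's own included, was -3.45 and -4.25 at the sites on X. It was -2.18 and -1.002 at those on chromosome 13. These medians cover 4, 65, 10 and 56 regions in that order, so the first is largely the site's own value and the third rests on few regions. With 65 and 56 regions of the 7 tables, the surroundings of chrX:28613315-28614161 and chr13:76374678-76375047 were lower in DKO too. The 6 other members within 500 kb of chr13:76374678-76375047 were nearer to 0, however. Their medians were -0.18 (CTCF), -0.06 (RAD21) and -0.07 (SMC1).

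The strongest of the members lower in DKO, chr13:50243356-50244336, had 35 CTCF, 37 RAD21 and 30 SMC1 reads in DKO, against 370, 189 and 127 in HCT116 (M -3.39, -2.60 and -2.37). All 3 proteins were called there in both lines. It lies between 48 and 54 Mb of chromosome 13, where the 7 other members within 500 kb had medians of -1.05, -1.01 and -0.67 for CTCF, RAD21 and SMC1, lower in DKO as well. The site chr5:161654110-161654443 had 6 CTCF, 7 RAD21 and 7 SMC1 reads in DKO, against 74, 32 and 25 in HCT116 (M -3.66, -2.63 and -1.98), and 3 others near it had a median CTCF M of -1.90.

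CTCF was at least 2-fold higher in DKO with both subunits within 0.5 of 0 at 168 members. Those with the highest CTCF M, among members with at least median CTCF density, are given here. The site chr6:166401426-166402826 had 133 CTCF, 53 RAD21 and 40 SMC1 reads in DKO, against 12, 29 and 37 in HCT116 (M 3.21, 0.43 and -0.20). The interval was 2.46 to 4.30 for CTCF, against -0.23 to 1.16 for RAD21 and -0.88 to 0.49 for SMC1, a gap for which the site was chosen. The site chr14:99666317-99667382 had 92 CTCF, 42 RAD21 and 52 SMC1 reads in DKO, against 11, 22 and 34 in HCT116 (M 2.76, 0.44 and 0.29). The site with the highest CTCF M of this kind, chr8:105336180-105342780, had 391 CTCF, 415 RAD21 and 351 SMC1 reads in DKO, against 36, 331 and 282 in HCT116 (M 3.38, 0.32 and -0.05). Its cohesin summits lay 4416 bp (RAD21) and 4406 bp (SMC1) from that of CTCF in a region 6600 bp wide, and windows of 1 kb centred on them would not overlap. At the sites on chromosomes 6 and 14 the RAD21 summits were 333 bp and 619 bp away, farther than at the typical member.

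The converse was cohesin higher in DKO on similar CTCF. The site chr13:102409799-102410270 had 71 CTCF, 122 RAD21 and 56 SMC1 reads in DKO, against 46, 14 and 20 in HCT116 (M 0.50, 2.63 and 1.14), with an interval of 1.92 to 3.63 for RAD21. On the same stretch, chr13:102166819-102167495 had 94 CTCF, 108 RAD21 and 80 SMC1 reads in DKO, against 71, 20 and 17 in HCT116 (M 0.33, 1.99 and 1.86). On another chromosome, chr8:13235117-13235643 had 86 CTCF, 87 RAD21 and 56 SMC1 reads in DKO, against 66, 20 and 9 in HCT116 (M 0.29, 1.66 and 2.22). The summits of both subunits at these 3 sites lay within 50 bp of that of CTCF. The median M over all regions of the 7 tables within 100 kb, the site's own included, was 1.06, 1.81 and 2.41 in the order given. These medians cover 11, 33 and 52 regions, so the first rests on few regions besides the site's own. With 33 and 52 regions, the surroundings of chr13:102166819-102167495 and chr8:13235117-13235643 were higher in DKO too. The 9 other members within 500 kb of chr13:102409799-102410270 were also higher in DKO. Their medians were 1.28 (CTCF), 1.80 (RAD21) and 0.98 (SMC1).

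Of the 3 named sites with lower cohesin on similar CTCF, chr5:87898162-87899051 had the lowest mean cohesin M. There were 208 CTCF, 38 RAD21 and 36 SMC1 reads in DKO, against 309, 113 and 75 in HCT116 (M -0.50, -1.87 and -1.35). The interval was -0.76 to -0.24 for CTCF and -2.47 to -1.35 for RAD21, a gap for which the site was chosen. CTCF was thus itself lower in DKO at this site, by less than RAD21. The site chr9:36415639-36416150 had 68 CTCF, 17 RAD21 and 19 SMC1 reads in DKO, against 77, 36 and 35 in HCT116 (M -0.26, -1.54 and -1.15). At chr2:218812585-218813835 there were 86 CTCF, 34 RAD21 and 50 SMC1 reads in DKO, against 90, 106 and 65 in HCT116 (M -0.13, -1.95 and -0.69), with the RAD21 summit 617 bp from that of CTCF. The surroundings of these sites were near 0, with a median M within 100 kb of 0.03, 0.24 and 0.01. These medians cover 70, 142 and 200 regions, the site's own included.

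The strongest members with similar M had many reads of each protein. The site chr16:85852769-85856469 had 772 CTCF, 794 RAD21 and 569 SMC1 reads in DKO, against 765, 784 and 477 in HCT116 (M 0.23, 0.15 and -0.12), with an interval of 0.08 to 0.38 for CTCF. The site chr8:142515981-142520857 had 951 CTCF, 756 RAD21 and 547 SMC1 reads in DKO, against 801, 789 and 329 in HCT116 (M 0.48, 0.07 and 0.36). The other two, chr8:140640310-140646267 and chr1:145057616-145060617, were alike: the first had 869 CTCF, 626 RAD21 and 446 SMC1 reads in DKO, against 779, 652 and 370 in HCT116 (M 0.38, 0.03 and -0.10), and the second had 748 CTCF, 647 RAD21 and 494 SMC1 reads in DKO, against 760, 515 and 430 in HCT116 (M 0.19, 0.40 and -0.17). Counting error is far smaller here than at the sites with few HCT116 reads.

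**Figure D5:**
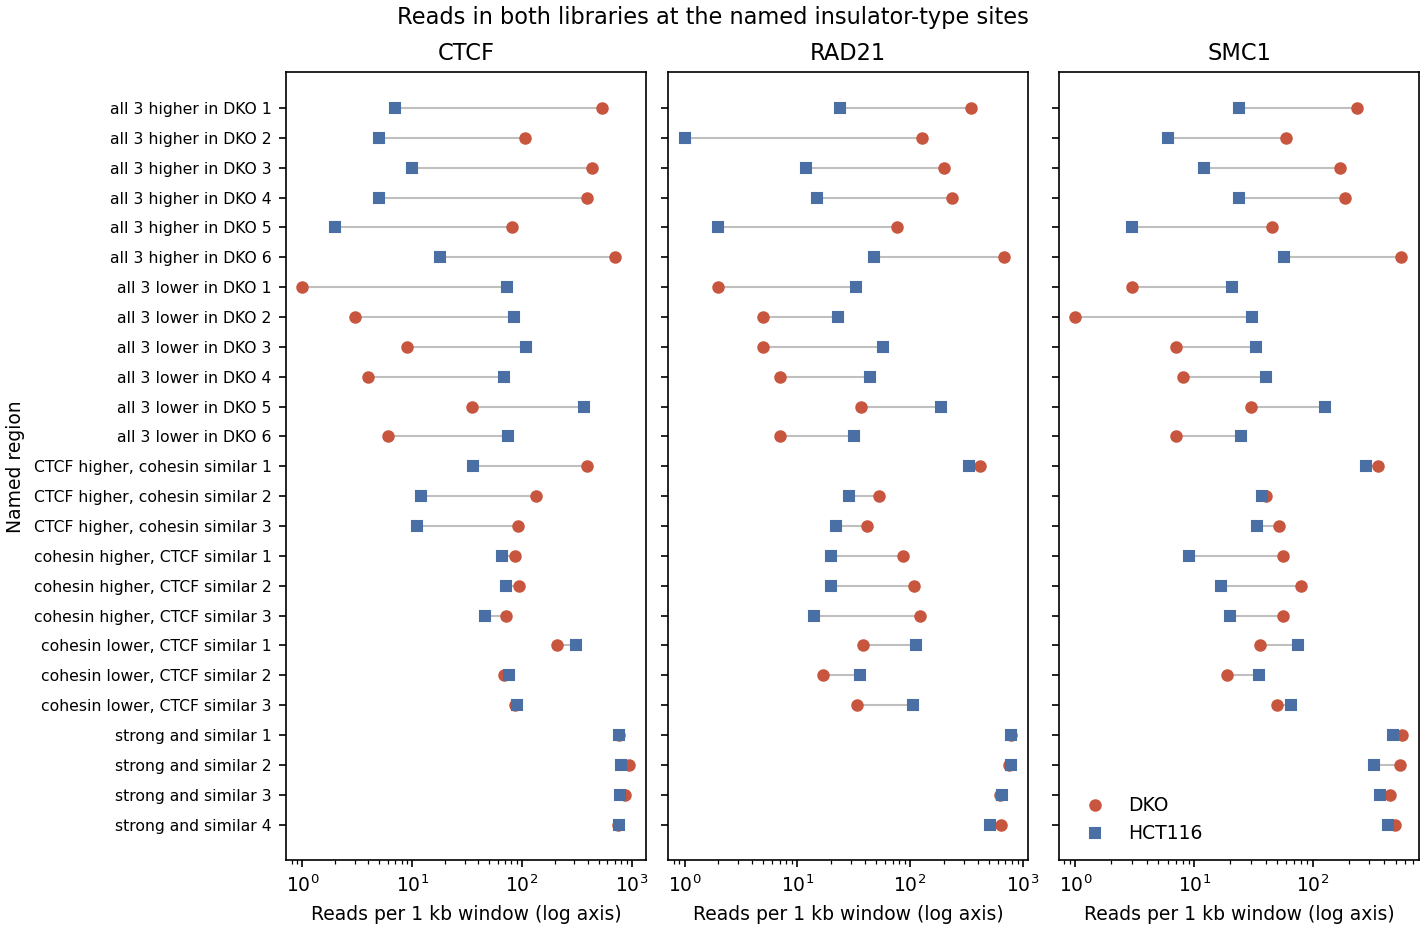
Reads per 1 kb counting window (log axis) in the DKO and HCT116 libraries of CTCF, RAD21 and SMC1 at the 25 named insulator-type sites, with 1 library per line and target. From the top: 6 with all 3 proteins higher in DKO, 6 with all 3 lower in DKO, 3 with CTCF higher and cohesin similar, 3 with cohesin higher and 3 with cohesin lower at similar CTCF, and 4 strong sites alike in both lines, each set in order of rank. In the first set the CTCF counts are 82 to 712 in DKO and 2 to 18 in HCT116.

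The chromosomes differed in how far their members lay toward DKO. Members of chromosome X had a median CTCF M of -0.46 and those of chromosome 21 one of 0.33, the extremes, and it was below 0 on 14 of 23 chromosomes, while that of RAD21 was above 0 on 23 of 23, from 0.01 on X to 0.60 on 21. The extremes were the same at sites with active marks, with CTCF at -0.13 on X and 0.48 on 21. RAD21 there had -0.37 on X and 0.22 on 21, so this spread was not particular to the members. On chromosome X CTCF was past 2-fold toward DKO at 3.82% of members and toward HCT116 at 12.6%. All 3 proteins were higher in DKO at 1.91% of members on X and at 15.7% on chromosome 21. They were all higher in HCT116 at 3.81% of members on chromosome 13 and at 2.54% on X. Leaving out X and the segments of chromosomes 2, 13 and 20 in which all targets were shifted moved each count by less than 1.5 times.

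Facts of the whole series bear on these values in a few places. Over the whole tables a region held a median of 55 CTCF, 46 RAD21 and 53 SMC1 reads in DKO, against 36, 30 and 35 in HCT116. The longest run of regions without a DKO read held 34 regions of 6 tables between 31368726 and 31392574 on chromosome 20, the chromosome of DNMT3B, and no member lay inside it. The disrupted genes were not placed by name, since no hg19 annotation was used. Another CTCF midpoint lay within 1 kb of 28.8% of members, which can then share reads, and 3.80% of members shared their RAD21 region with another member.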

How the data were processed

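Reads were aligned with BWA to hg19, per the submitters' processing notes. For all targets but TotalRNAPol2 these also name MACS2. Tool versions were not given in the sources used here. The deposited tables, 1 per target, hold a normalized density (a read signal), its log2 ratio M, its mean log2 level A, a p-value and a summit for each region, per the file headers. Each table was normalized separately by the authors. Reads were recovered from M and A, and 100% came out whole within 0.05. A count of 1 had been added to each. The recovery was checked on simulated data. A counting window of 1 kb fitted the 3 bound proteins. The deposited p-value was used in 1 alternative only.

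Regions were matched by an overlap of at least 1 bp, with the longest overlap kept. Intervals are 95%: Clopper-Pearson for reads and shares, order statistics for medians. Reads are not independent molecules, so they cover counting error only. No hg19 genome or gene annotation was used, so no gene or sequence is given. The base that starts the coordinates is not stated.

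Named regions were members with a higher CTCF density at or above the table's median and 100 kb apart. They were the 6 highest and 6 lowest by mean M of the 3 proteins, 3 with the highest CTCF M at similar cohesin, 3 highest and 3 lowest by mean cohesin M at similar CTCF, and the 4 strongest with all M within 0.5 of 0. Members and lists were chosen with earlier results of these data known. Python 3.11.15, pandas 2.3.3, numpy 2.4.6 and scipy 1.17.1 were used. Of the alternatives, 13 were planned; those of cohesin M minus CTCF M were added after seeing the data.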

Additional observations from a re-analysis of the deposited data

How the results depend on the processing

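No paired analysis was possible because each line had 1 library per target. Counts are given in the order CTCF, RAD21, SMC1 and all 3, each as higher in DKO and then in HCT116. With at least 50% of the CTCF region covered, 11352 members had 1813 and 726, 2493 and 303, 1721 and 281, and 964 and 132. With no active region within 5 kb, 14156 had 2304 and 883, 3142 and 367, 1975 and 347, and 1182 and 149. Called in both lines in all 3 tables, 13734 had 287 and 650, 846 and 198, 344 and 128, and 122 and 48, so CTCF alone turned to HCT116. At or above the median density in all 3 tables, 12653 had 1594 and 491, 2096 and 269, 1622 and 236, and 1006 and 123. These settings keep fewer members. A 1.5-fold threshold gave 6327 and 4953, 9167 and 1871, 7381 and 2111, and 3941 and 907. A 4-fold threshold gave 1486 and 171, 1198 and 77, 309 and 32, and 199 and 11. A p in the authors' deposited table under 1e-05 left 2998 and 371 for RAD21, 1312 and 179 for SMC1, and 846 and 97 for all 3. Higher in HCT116, M recentred on all regions gave 3290 for CTCF, 1034 for SMC1 and 450 for all 3, and chromosome medians removed gave 2774 for CTCF.

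The other values concern the median of cohesin M minus CTCF M, with alternatives chosen after seeing the data. For RAD21 at members it was 0.48 with M recentred, 0.43 with chromosome medians removed, 0.38 with constant centring and 0.46 at sites called in both lines. For SMC1 at members it was 0.31, 0.29 and, called in both lines, 0.31. At sites with active marks RAD21 had -0.23, -0.20, -0.39 and -0.22, and -0.26 with no other CTCF midpoint within 1 kb. SMC1 had -0.080, -0.066 and, called in both lines, -0.11, and -0.15 with no other midpoint. No sign changed in any of these, and the causes of the shifts were not tested. Using the mean of all overlapping cohesin regions, or leaving out X and the shifted segments, moved no count by 1.5 times. Depth limits the weakest quintile most, where HCT116 had a median of 24 CTCF reads.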

Other observations

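Neighbouring members resembled each other over long distances. Spearman's rho of CTCF M between consecutive members was 0.32 at up to 5 kb (3802 pairs) and 0.33 at 5 to 50 kb (8813). It was 0.31 at 50 to 200 kb (10115) and 0.32 at 200 kb to 1 Mb (3905), so rho did not fall with distance over this range. Pearson's correlation was higher at up to 5 kb, at 0.45, than in the farther bins, at 0.33, 0.32 and 0.35. Members close together can share reads. Members with all 3 proteins higher in DKO were followed by another such member in 27.4% of 1818 cases, against 6.80% over all members. For those with all 3 higher in HCT116 it was 13.5% of 281, against 1.05%. These are descriptions across regions of the same libraries, and copy number between the lines was not measured.

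Where both subunits passed 2-fold, they did so in the same direction at 2730 of 2733 members. Members with all 3 proteins similar (7292) were wider, at a median of 1384 bp, than the 1820 with all 3 higher in DKO, at 760 bp, and nearer to an active region, at 4950 bp against 9364 bp.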
